A study of Mus musculus with 12 samples.

Results

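The cytosolic ribosomal proteins were taken as every probe whose annotated mouse symbol was Rpl or Rps followed by a number, with the usual suffixes, or was Rplp0, Rplp1, Rplp2 or Rpsa. The Rps6k kinases were left out. This rule found 92 probes of 62 genes, 57 of the large (60S) and 35 of the small (40S) subunit, among 45281 probes on the array, which named 19057 genes. Probes entered the tests of a tissue when 3 or more of its 6 arrays showed them above background, which left 73 in liver and 76 in gonadal adipose tissue (GWAT), together 77 probes of 56 genes. The rule used no measured difference between groups. Members such as Rpl5, Rpl11 and Rps18 had no probe named here and were not analysed.

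The arrays were Illumina bead arrays hybridised with biotin-labelled cRNA from male FVB mice. The 4 groups, of 3 arrays each, were wild-type liver and Cav1 knockout liver at 12 weeks of age, and GWAT labelled wild type or Cav1 knockout at 8 weeks. Cav1 encodes caveolin-1, which shapes the membrane invaginations known as caveolae. The labels name the knockout without saying which tissues or cells lost the gene, and do not say whether each replicate was its own animal. The p-values therefore rest on a spread between arrays that may be technical. Age and normalization went with tissue and cannot be told apart from it.

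The cytosolic ribosome translates messenger RNA. Its small subunit scans and decodes the message, and its large subunit joins amino acids and passes the growing chain through an exit tunnel. Most ribosomal proteins occur once in each ribosome and their genes are among the most highly transcribed in nearly every tissue, which is why several are used as reference genes. Their messages typically begin with a pyrimidine tract at the start site, through which the mTOR pathway controls their translation. Many ribosomal protein genes have processed pseudogenes, so a probe may also read near-identical copies, and the probe sequences were not used here.

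Start sites are shown for 10 members on which the results below turn, to set genes that differed beside genes that did not. Each line gives 40 bases before the RefSeq start and 20 from it (GRCm38.p6, first listed start of the gene). Capitals mark TCTTT within 10 bases of the start on the coding strand, a stand-in for a pyrimidine-rich start, and CCGGAAG on either strand, a core ETS-family motif. Both motifs were chosen after the expression values were known.
Rps6 (chr4:86857348-86857407, minus strand): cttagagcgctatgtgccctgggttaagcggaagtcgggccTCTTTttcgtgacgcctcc
Rpl7a (chr2:26910767-26910826, plus strand): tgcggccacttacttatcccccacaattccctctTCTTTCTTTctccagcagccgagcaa
Rpl26 (chr11:68901526-68901585, plus strand): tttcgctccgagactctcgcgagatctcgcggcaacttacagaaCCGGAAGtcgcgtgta
Rps27l (chr9:66946046-66946105, plus strand): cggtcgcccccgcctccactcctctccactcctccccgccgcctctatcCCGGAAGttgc
Rps2 (chr17:24720023-24720082, plus strand): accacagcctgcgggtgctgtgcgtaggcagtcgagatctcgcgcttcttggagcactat
Rpl9 (chr5:65391412-65391471, minus strand): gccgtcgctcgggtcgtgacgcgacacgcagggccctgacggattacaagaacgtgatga
Rps16 (chr7:28350649-28350708, plus strand): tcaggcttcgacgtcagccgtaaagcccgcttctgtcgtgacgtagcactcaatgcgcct
Rpl27 (chr11:101442205-101442264, plus strand): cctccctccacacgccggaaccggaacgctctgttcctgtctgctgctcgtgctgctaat
Rpl23 (chr11:97782420-97782479, minus strand): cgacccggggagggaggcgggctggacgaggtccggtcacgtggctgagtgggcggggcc
Rpl3l (chr17:24727786-24727845, plus strand): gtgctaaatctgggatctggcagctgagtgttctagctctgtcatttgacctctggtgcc
Of the 62 member genes, 51 had a window of 300 bases in the RefSeq table. TCTTT stood within 10 bases of the start in 7 of the 51 (13.7%), against 2.14% of the windows of 27025 genes. CCGGAAG stood anywhere in the window in 22 of the 51 (43.1%), against 9.12% of all genes, and in Rps2 and Rps6 it lay outside the 60 bases shown. TATAAA in the 40 bases before the start was found in 1 member, Rpl22l1 (1.96%), against 2.55% of all genes. Among the genes shown with a called probe in GWAT, the higher Rpl26 (CCGGAAG) and Rps6 (TCTTT) show capitals and the higher Rps2 and Rpl9 do not. The lower Rps16, Rpl27 and Rpl23 show none. Of the genes shown without a called probe in GWAT, Rpl7a (TCTTT) and Rps27l (CCGGAAG) show capitals and Rpl3l does not. Their log2 differences in GWAT were -0.23, -0.11 and -0.71. Not shown are the higher Rps19 and the lower Rps13 and Rps24, which had neither TCTTT near the start nor CCGGAAG in the window. The higher Rpl21 and Rpl32 had no window in the RefSeq table. These matches describe the letters of the windows only.

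The label check came first. The Cav1 probe read 172, 167 and 210 on the wild-type and 110, 117 and 113 on the knockout liver arrays, where it lay below background on 3 of 3. In GWAT it read 112, 108 and 111 on the arrays labelled wild type and 14598, 15114 and 17476 on those labelled knockout. In GWAT Cav1 was thus high where the label says knockout. Where it says wild type Cav1 was low, though above background on 3 of 3 arrays. All GWAT directions below follow the labels as deposited, and exchanging the labels would reverse them. The share of probes above background was 33.7% to 36.5% per array in liver and 44.8% to 48.6% in GWAT. All 10 hepatocyte marker genes with a probe were above background in liver, and all 9 adipocyte marker genes in GWAT.

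Ribosomal protein transcripts were among the brightest signals of both tissues in all 4 groups. Of the 73 kept member probes, 32 (43.8%) had a mean in the top 1% of all probes in liver and 48 (65.8%) in the top 5%, whereas 2.95% and 14.5% of all kept probes did. In GWAT 38 of 76 (50%) lay in the top 1% and 48 (63.2%) in the top 5%, against 2.07% and 10.4% of all kept probes. Member means ran from 124 to 29921 in liver and from 76.3 to 31678 in GWAT, with medians of 4420 and 5664. The median percentile among all probes was 98.9 for the small and 98.4 for the large subunit in liver, and 99.2 and 97.9 in GWAT. Small subunit probes lay more often in the top 5%, at 73.3% against 60.5% of large subunit probes in liver. In GWAT these shares were 71% and 57.8%. These are probe signals, which depend on the probe as well as on the transcript, so these ranks describe signals on the array and not the relative amounts of the transcripts.

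**Figure D1:**
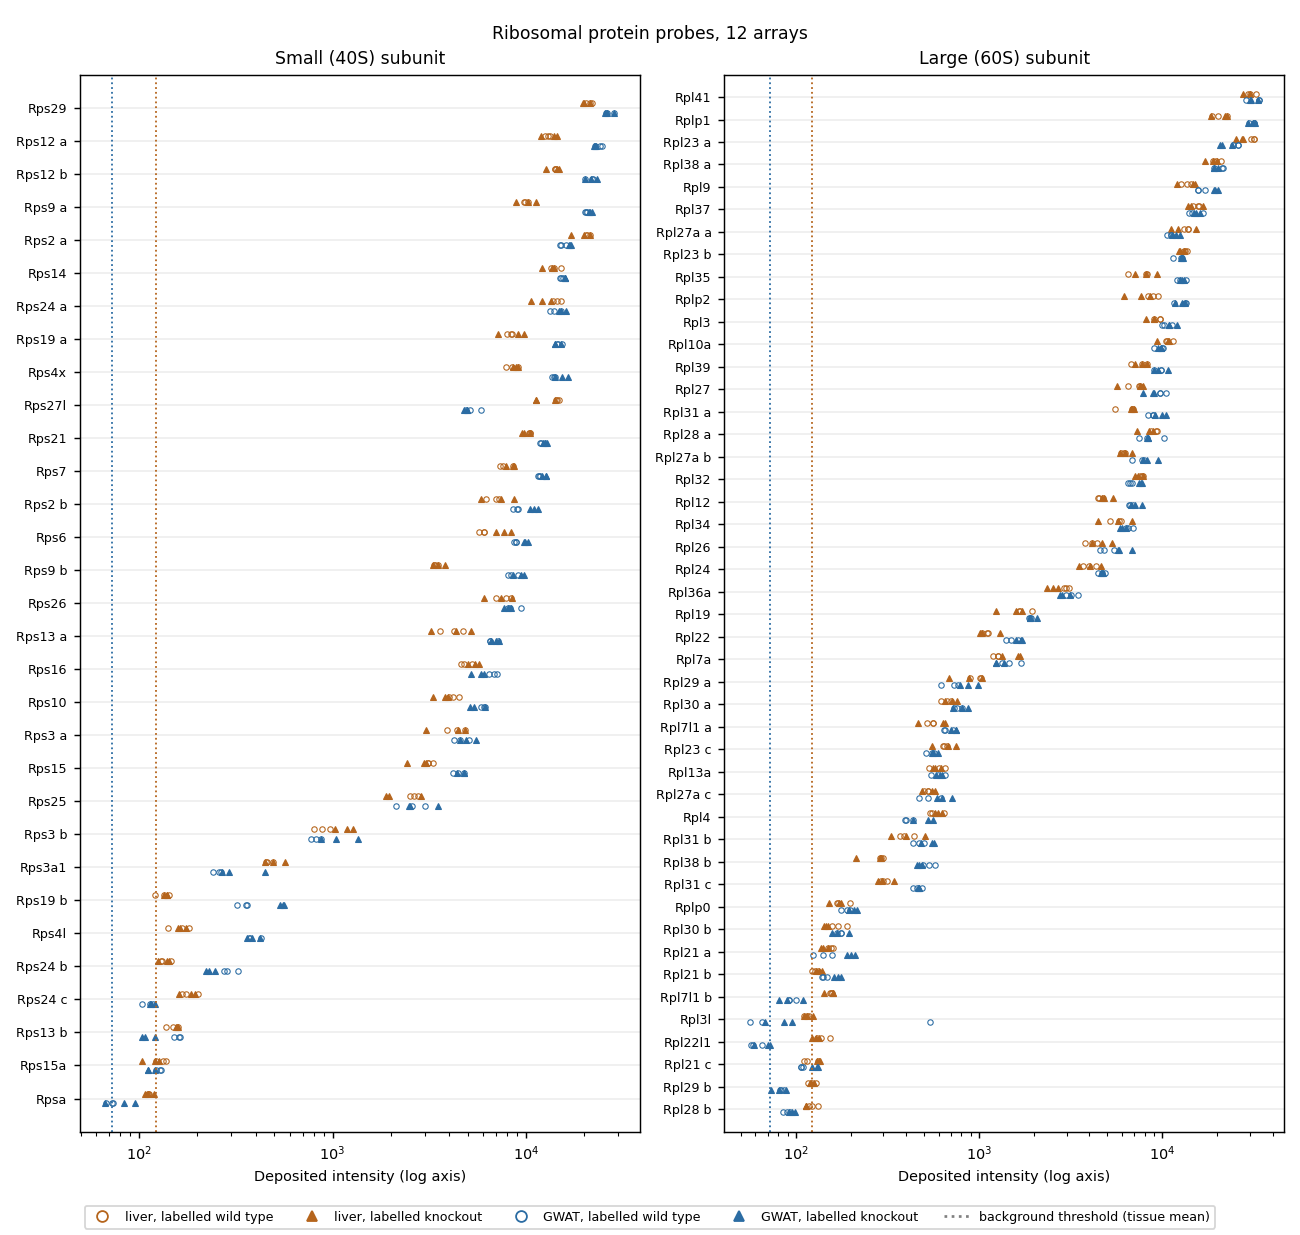
Deposited intensity (horizontal, log axis) of each kept ribosomal protein probe on the 12 arrays, small subunit left and large subunit right, with probes sorted by their higher tissue mean and letters separating probes of 1 gene from the brightest (a) on. Open circles are arrays labelled wild type, triangles arrays labelled knockout, brown liver and blue GWAT, and dotted lines are the mean background threshold of each tissue. For most probes the 2 symbols of a colour overlap. Rpl3l has a single GWAT array at 541, apart from its other arrays.

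The threshold was reached on few arrays by some members, which limits what they show. The genes Rpl14, Rpl17, Rpl39l, Rpl6, Rps20 and Rps23, had no kept probe in either tissue. Rpl39l, the germ-cell paralog of Rpl39, lay below background on all arrays of all 4 groups. Rpl3l, Rpsa and a second probe each of Rpl28 and Rpl29 were kept in GWAT alone, and Rpl22l1 in liver alone. Whether a dim probe reflects a rare transcript or a poorly hybridising probe was not tested.

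In liver no ribosomal protein probe differed between genotypes at the threshold. The limma fit called 0 of 73 members at an adjusted p under 0.05, where it called 9 of all 15408 probes, a background of 0.0584% (0.0325% higher and 0.026% lower). At an unadjusted p under 0.05 there were 9 members (12.3%), against 9.92% of all probes. Of these members 3 were higher in the knockout (4.11%, background 5.59%) and 6 lower (8.22%, background 4.32%). The groups did not overlap for 12 members (16.4%), against 15.4% of all probes, with 3 higher (4.11%, background 6.79%) and 9 lower (12.3%, background 8.59%). The shares over both directions were near the background. The median difference of the members was -0.016 on the log2 scale and that of all kept probes -0.019, and the members ranged from -0.57 to 0.48. Values above 0 were found for 35 of 73 members (47.9%, background 46.6%), and a difference of at least 0.5 in size for 1 (1.37%, background 6.81%) and of at least 0.2 for 21 (28.8%, background 41.3%).

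Rps6, the 40S protein phosphorylated by the S6 kinases, had the lowest p of the members in liver. Its intensity was 6052, 5684 and 6068 on the wild-type arrays and 7695, 8380 and 7017 on the knockout arrays. All 3 knockout arrays thus lay above all wild-type arrays, by 0.38 on the log2 scale (SE 0.10, limma adjusted p = 0.282). A probe of Rps3, which lines the entry of the mRNA channel, read 969, 802 and 878 in wild type and 1024, 1183 and 1272 in the knockout (log2 difference 0.43, SE 0.14, adjusted p = 0.370). Its other probe overlapped between genotypes and differed by -0.12. Rpl7a, a 60S protein, read 1191, 1262 and 1272 in wild type and 1340, 1663 and 1623 in the knockout, again without overlap (0.33, SE 0.13, adjusted p = 0.434). Rps3 is named here after its values were seen.

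Other members read lower on all 3 knockout liver arrays, again without passing the threshold. Rps27l, a p53-responsive paralog of Rps27, read 14266, 14760 and 14459 in wild type and 14045, 11195 and 11326 in the knockout (-0.26, SE 0.10, adjusted p = 0.454). Rpl23, a 60S protein that can bind Mdm2, read 30402, 31496 and 31496 in wild type and 27490, 27213 and 25216 in the knockout on its most intense probe (-0.23, SE 0.08, adjusted p = 0.420). Its other kept probes differed by -0.08 and 0.01. Rps24, a 40S protein, read 15133, 13708 and 14391 in wild type and 13440, 12038 and 10588 in the knockout on its most intense probe (-0.27, adjusted p = 0.438), and its other kept probes differed by -0.04 and -0.01. With array weights in the fit, 4 members passed, Rps6 (0.47, adjusted p = 0.00624), Rps3 (0.45), Rpl7a (0.40) and Rps27l (-0.33), while 4.59% of all probes did.

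One knockout liver array was low for the members as a group. Knockout replicate 3 was the lowest of the 6 arrays for 44 of the 73 members, while no other liver array was the lowest for more than 10. The median deviation of the members from their mean over the 6 arrays was -0.156 (log2) on that array, against -0.017 for all kept probes there, and lay between 0.013 and 0.084 on the other 5. Without it the median difference of the members was 0.059 instead of -0.016, and still no member passed the threshold. With any other liver array left out, 0 members passed as well.

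**Figure D2:**
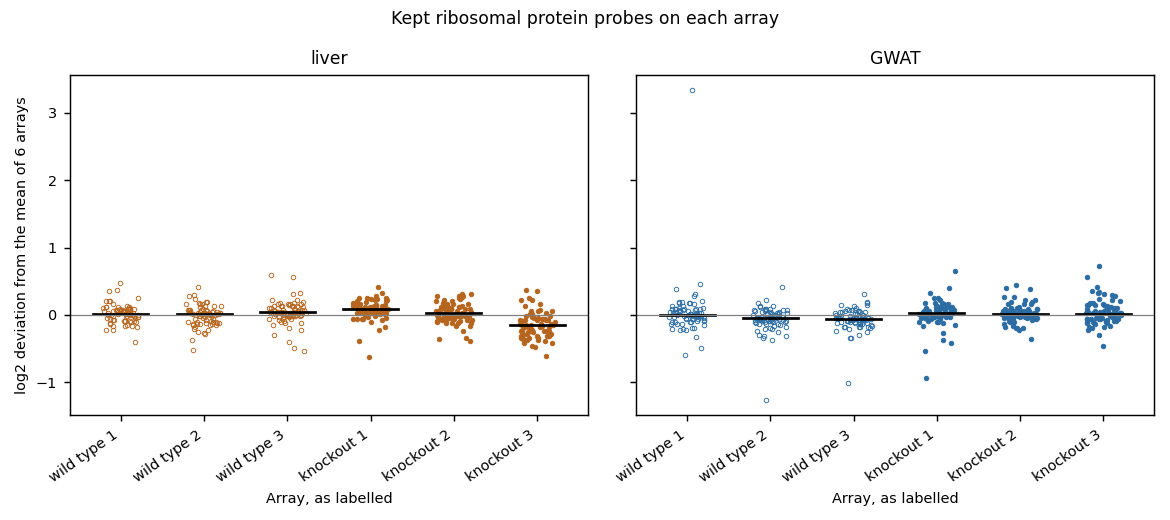
Deviation (vertical, log2) of every kept ribosomal protein probe from its mean over the 6 arrays of a tissue, by array, with liver on the left and GWAT on the right. Each point is a probe, open on arrays labelled wild type and filled on arrays labelled knockout, and the bar is the median. Knockout liver array 3 has the lowest median, at -0.156, and the lone point above 3 in GWAT is Rpl3l on wild-type array 1.

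In GWAT 13 of the 76 members passed the threshold, 8 higher and 5 lower in the arrays labelled knockout. This is 17.1% of the members, where the background was 22.5% of all 21305 probes, with 11.2% higher and 11.4% lower. The members that passed were therefore no larger a share than that of all probes, and both directions occurred in both subunits: 3 higher and 3 lower of the 31 kept small subunit probes, and 5 higher and 2 lower of the 45 kept large subunit probes. At an unadjusted p under 0.05 there were 22 members (28.9%, background 35.6%), 16 higher (21.1%, background 18%) and 6 lower (7.89%, background 17.5%). The median difference was 0.056 (log2) for the members and 0.01 for all probes. Higher values were more frequent, with 49 of 76 members above 0 (64.5%, against 51.3% of all probes). The groups did not overlap for 26 members (34.2%, background 39.3%), 19 of them higher (25%, background 20.6%) and 7 lower (9.21%, background 18.8%).

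**Figure D3:**
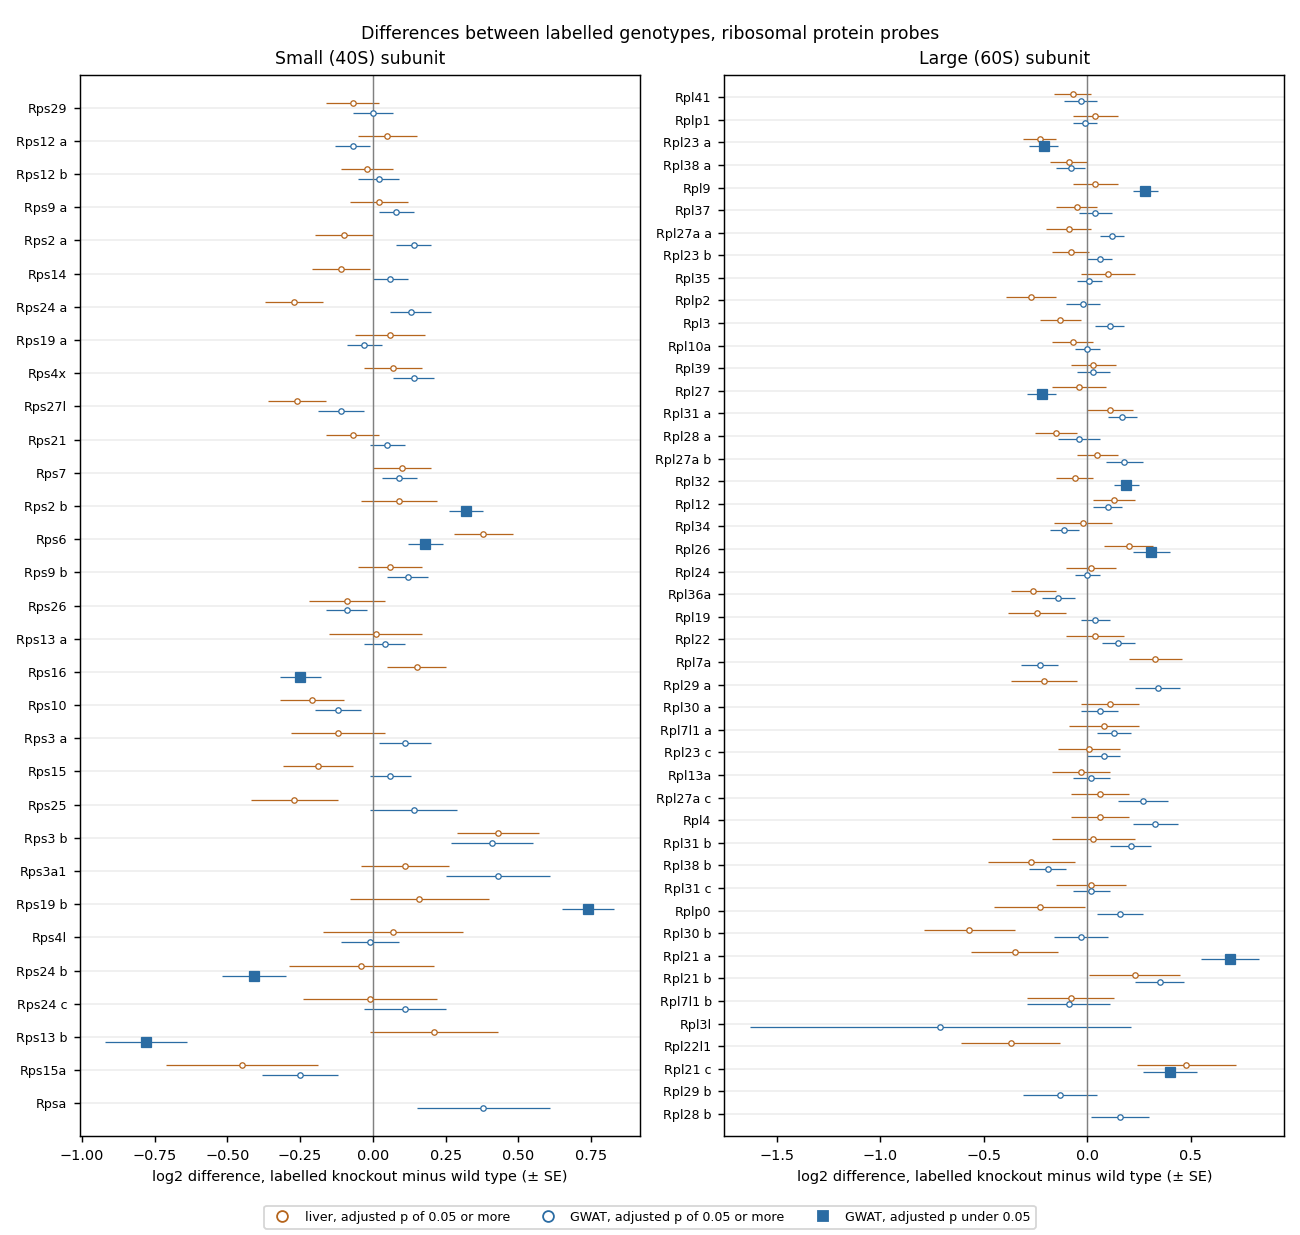
Differences between labelled genotypes (horizontal, log2, knockout minus wild type, bars ± SE of the limma fit) for each kept ribosomal protein probe, small subunit left and large subunit right on axes of different range, in the order of the plot of levels. Brown is liver and blue GWAT, and filled squares passed an adjusted p under 0.05. All 13 squares are GWAT values, from -0.78 (Rps13 b) to 0.74 (Rps19 b).

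Most differences of the members were small. In GWAT 4 of 76 members (5.26%) differed by at least 0.5 on the log2 scale in either direction, against 13.3% of all probes, and 22 (28.9%) by at least 0.2, against 50.3%. The median SD within groups was also smaller for the members than for all probes, 0.092 against 0.148 in GWAT and 0.146 against 0.226 in liver. It was 0.129 in GWAT and 0.227 in liver for members with a mean intensity under 1000. For the brighter members it was 0.082 and 0.125. In GWAT the members under 1000 differed by -0.78 to 0.74 and the brighter ones by -0.25 to 0.32. Among probes with a mean intensity of at least 1000, 8 of 48 members (16.7%) passed in GWAT, where 38.5% of all 3001 such probes did. In liver 0 of 49 such members passed, where 0.128% of all such probes did. The limit of 1000 was chosen after the values were seen. In GWAT 38 of the 48 members (79.2%) lay in the top 1% of all probes, where 440 of the 3001 probes over this limit did. Members and other probes over this limit were thus not matched for intensity. In all 19 settings of the GWAT fit that were computed, the called share of the members, 6.67% to 26.3%, was below that of all probes, 8.01% to 30.1%. These settings refit the same arrays and are not separate tests, and the setting with current symbols repeated the main fit. Without a filter the shares were close, at 7.61% and 8.01%.

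**Figure D4:**
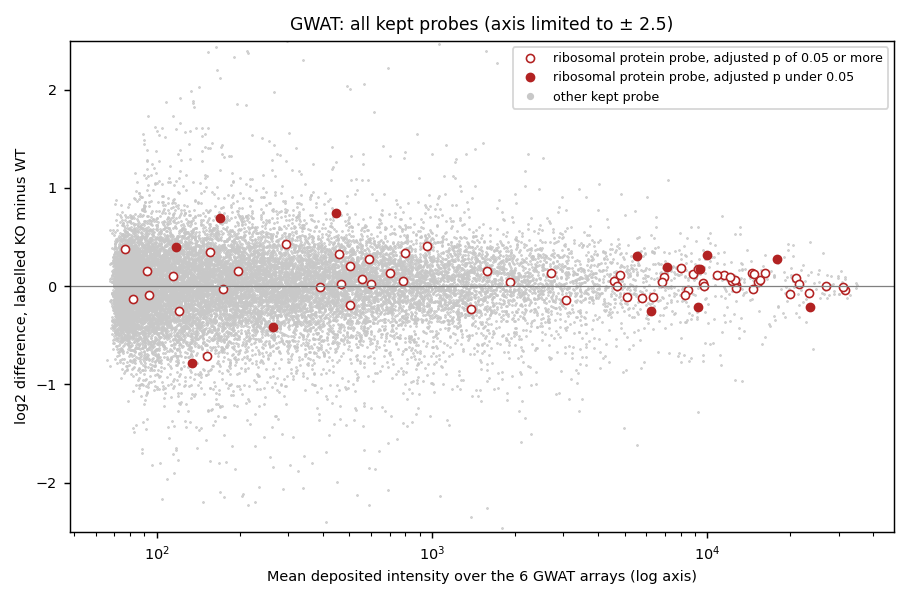
Difference between labelled genotypes in GWAT (vertical, log2, limited to ± 2.5) against mean intensity over the 6 GWAT arrays (horizontal, log axis) for all kept probes. Grey points are other probes and red circles ribosomal protein probes, filled where the adjusted p was under 0.05. Of the 48 ribosomal protein probes with a mean of 1000 or more, all lie between -0.25 and 0.32.

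Small subunit members accounted for 3 of the 8 probes that read higher in labelled-knockout GWAT. A probe of Rps19, a 40S protein needed for the maturation of the small subunit (ILMN_2754355), read 320, 357 and 360 in the arrays labelled wild type and 534, 552 and 562 in those labelled knockout. The groups lay far apart, and the difference was 0.74 (SE 0.09, adjusted p = 0.000264), the largest rise of a member. Rps2, which lies at the mRNA entry channel, read 8517, 9069 and 8936 in wild type and 11022, 10511 and 11483 in knockout on 1 probe. Every array labelled knockout was higher (0.32, SE 0.06, adjusted p = 0.00485). Rps6 read 8901, 8833 and 8715 in wild type and 10232, 9923 and 9747 in knockout. Its difference of 0.18 (SE 0.06, adjusted p = 0.0489) was just inside the threshold, and its call was lost with each of the 6 arrays left out (adjusted p 0.0573 to 0.129).

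Large subunit members accounted for the other 5 higher probes. Rpl9, whose protein lies near the base of the large subunit stalk, read 17059, 15689 and 15689 in wild type and 19316, 20193 and 19164 in knockout. The 2 groups were well apart (0.28, SE 0.06, adjusted p = 0.00921). Rpl26, found near the exit tunnel, read 5426, 4593 and 4822 in wild type and 5823, 5731 and 6812 in knockout (0.31, SE 0.09, adjusted p = 0.0264). Rpl32, a 60S protein used as a reference gene, read 6700, 6508 and 6812 in wild type and 7457, 7686 and 7722 in knockout (0.19, SE 0.06, adjusted p = 0.0383). In each of these genes the lowest knockout array lay above the highest wild-type array.

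Rpl21 was higher on each of its 3 kept probes, all of which were dim. The probe ILMN_1225201 read 124, 140 and 157 in wild type and 189, 209 and 199 in knockout (0.69, SE 0.14, adjusted p = 0.00588). On ILMN_1222250 the values were 106, 106 and 109 against 123, 132 and 130 (0.40, SE 0.13, adjusted p = 0.0442), a call lost with each array left out. The third probe read 138, 141 and 147 against 169, 177 and 162 and missed the threshold (0.35, SE 0.12, adjusted p = 0.0533). Their means were 1.62 to 2.35 times the background threshold, so the size of their log2 differences depends on the background correction. In the deposited intensities the groups did not overlap on any of the 3 probes. The ratio of knockout to wild type there was 1.42 for ILMN_1225201 and 1.2 for each of the others. Values just outside the threshold were also found for Rpl4 (0.33, adjusted p = 0.0538), a probe of Rpl29 (0.34, adjusted p = 0.0516) and a probe of Rps3 (0.41, adjusted p = 0.0540). The other kept probe of Rpl29 differed by -0.13 (adjusted p = 0.648) and that of Rps3 by 0.11 (adjusted p = 0.407).

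Among the 5 lower probes, 3 belonged to the small subunit. Rps13, which lies at the interface between subunits, read 163, 160 and 152 in wild type and 104, 121 and 107 in knockout on its dim probe ILMN_2482591. The groups were apart (-0.78, SE 0.14, adjusted p = 0.00255), the largest fall of a member. A dim probe of Rps24 (ILMN_1214875) read 326, 275 and 283 in wild type and 246, 229 and 221 in knockout (-0.41, SE 0.11, adjusted p = 0.0245). Rps24, like Rps19, is mutated in human Diamond-Blackfan anaemia. Rps16, a 40S protein near the decoding site, read 7074, 6823 and 6454 in wild type and 5183, 6069 and 5857 in knockout (-0.25, SE 0.07, adjusted p = 0.0319).

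In the large subunit Rpl27 read 10443, 9727 and 9727 in wild type and 8991, 8901 and 7881 in knockout (-0.22, SE 0.07, adjusted p = 0.0476). Rpl23 read 25875, 25875 and 24359 in wild type and 21100, 23936 and 20720 in knockout (-0.21, SE 0.07, adjusted p = 0.0487). Both groups were apart in both genes, and both values lay just inside the threshold. With 1 array left out, 5 of 6 fits lost the call of Rpl27, Rpl23 and Rpl32, 4 lost that of Rps16, and 3 lost those of Rpl26 and Rps24. The probes of Rps19, Rps2, Rpl9 and Rps13 and the probe ILMN_1225201 of Rpl21 kept theirs in all 6.

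**Figure D5:**
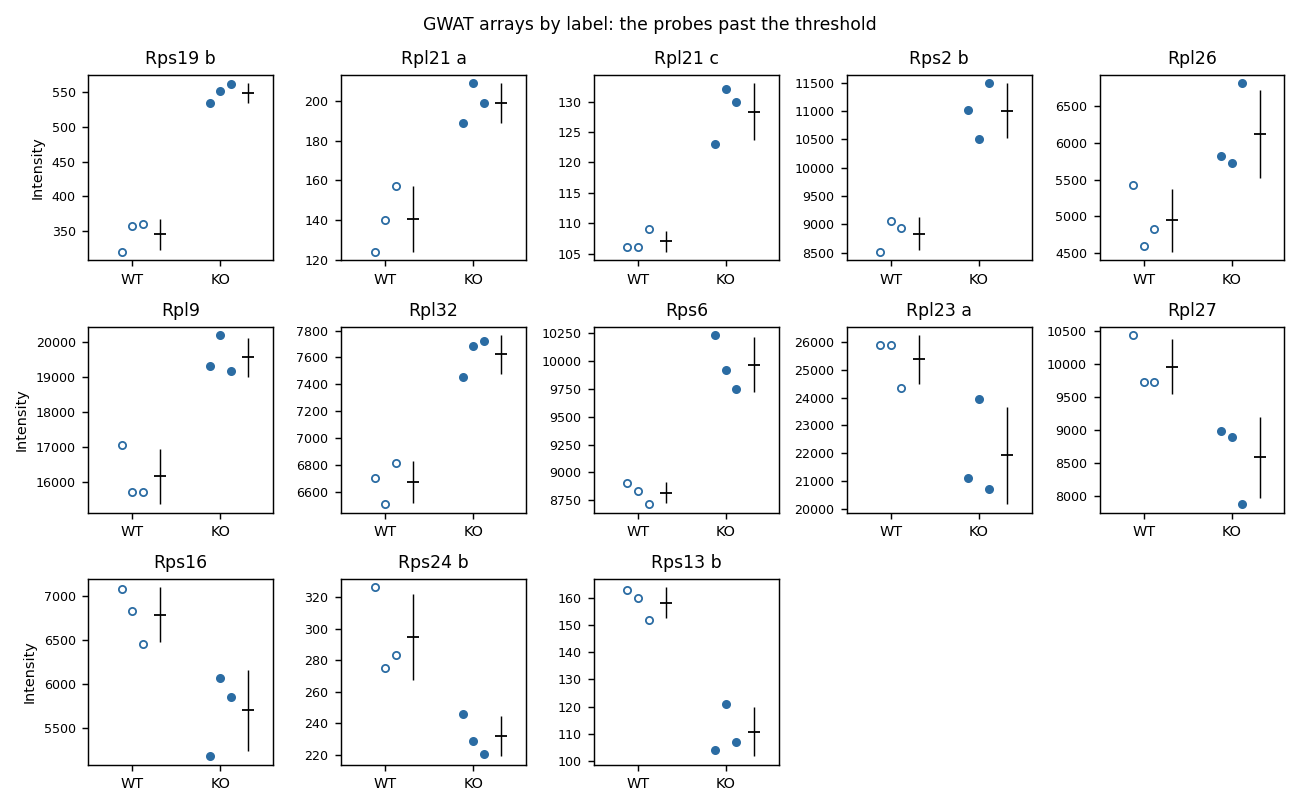
Intensity (vertical, linear, axes of different range that do not start at 0) of the 13 ribosomal protein probes past the threshold, on the GWAT arrays labelled wild type (WT, open) and knockout (KO, filled). Each point is an array, and the black mark is the mean ± SD of 3 arrays. The first 8 panels, from Rps19 b to Rps6, are higher and the last 5 lower in the arrays labelled knockout, with no overlap in any panel.

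The count of called members depended on single GWAT arrays. Without wild-type replicates 1, 2 and 3 it was 9, 6 and 8. Without knockout replicates 1, 2 and 3 it was 13, 9 and 5, against 13 with all arrays. The share of all probes called was 20.3%, 13.4% and 21% without these wild-type arrays. It was 20.4%, 13.9% and 15.4% without these knockout arrays, against 22.5% with all arrays. Several sets of cell type markers moved with the GWAT labels as well. Of all GWAT probes 11.2% were higher and 11.4% lower. Of 15 kept macrophage probes 10 were lower and none was higher, with summed intensities of 27650 to 31324 in wild type and 18930 to 20273 in knockout. Of 12 kept adipocyte probes 2 were higher and 2 lower (sums of 97820 to 102196 against 94161 to 97597). Smooth muscle probes were higher for 4 of 11 (13583 to 16292 against 16606 to 27729), and endothelial probes were lower for 4 of 11 (7798 to 8572 against 7089 to 7695). Granulocyte and mast cell probes were higher for 2 and lower for 7 of 10, and duct epithelial probes higher for 5 of 10. Fibroblast and mesothelial probes were lower for 4 of 9. None of 7 lymphocyte and 3 erythroid probes was called, and of 6 hepatocyte probes 1 was higher and 1 lower. The part of these cell types in the differences of the ribosomal proteins was not tested. In these bulk tissues fewer cells of a type and less RNA per cell cannot be told apart.

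Probes of the same gene often differed. In GWAT 16 member genes had several kept probes, and in 9 of them the probes had opposite signs. A probe passed the threshold in 6 of the 16 genes, and in none of these did all kept probes pass. The other Rps19 probe read 15360, 14598 and 14421 in wild type and 15093, 14112 and 14176 in knockout, with overlap and a difference of -0.03 (SE 0.06, adjusted p = 0.742). The other Rps13 probe read 7192, 6517 and 6492 against 7207, 6990 and 6595 (0.04, SE 0.07, adjusted p = 0.699). Thus the member probes with the largest rise and the largest fall each had a brighter partner that did not pass.

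The probes of Rps24 and Rpl23 also had opposite signs, while those of Rps2 and Rpl21 were all higher. For Rps24 the other kept probes differed by 0.13 (adjusted p = 0.204) and 0.11 (adjusted p = 0.638), opposite to the fall of its called probe. For Rpl23 they differed by 0.06 and 0.08, also opposite. The second Rps2 probe read 16012, 14953 and 15093 in wild type and 16749, 17059 and 16839 in knockout, with no overlap and the same direction (0.14, SE 0.06, adjusted p = 0.118). In liver 14 genes had several kept probes, of which 8 had opposite signs and none a called probe. Rpl9, Rpl26, Rpl32, Rps6, Rps16 and Rpl27 had a single probe each in these data.

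The stalk proteins showed no called difference. Rplp0, Rplp1 and Rplp2 form the stalk of the large subunit that recruits elongation factors. In liver Rplp1 read 18688, 20084 and 22596 in wild type and 22028, 22473 and 18552 in the knockout, with overlap (0.04, SE 0.11, adjusted p = 0.933). In GWAT it read 31715, 31715 and 29688 against 31138, 32084 and 29552 (-0.01, SE 0.06, adjusted p = 0.961). Rplp2 was 8936 ± 558 (SD, n = 3) and 7484 ± 1210 in liver (-0.27, SE 0.12, adjusted p = 0.490) and 12780 ± 1080 and 12591 ± 776 in GWAT (-0.02, SE 0.08, adjusted p = 0.884). The kept Rplp0 probe was dim, at 178 ± 16.2 and 166 ± 13.1 in liver (-0.23, SE 0.22, adjusted p = 0.779) and 188 ± 10.8 and 205 ± 10.3 in GWAT (0.16, SE 0.11, adjusted p = 0.364), and its second probe was below background on all 12 arrays. Rpsa, the ribosomal protein also known as the laminin receptor, was below background on all liver arrays and at 72.0, 73.7 and 67.2 against 94.9, 66.8 and 83.1 in GWAT (0.38, SE 0.23, adjusted p = 0.273).

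Of the members often used as reference genes, Rpl32 was called in GWAT and the others were not. Rps29 read 28622, 26298 and 25875 on the GWAT arrays labelled wild type and 28622, 26298 and 25722 on those labelled knockout, a difference of 0.00 (SE 0.07). In liver it was 21275 ± 712 (SD, n = 3) and 20274 ± 960 (-0.07, SE 0.09). Rpl13a was 599 ± 59.4 and 586 ± 31.7 in liver (-0.03, SE 0.14) and 598 ± 50.1 and 605 ± 21.1 in GWAT (0.02, SE 0.09). Rpl19 was 1756 ± 166 and 1513 ± 246 in liver (-0.24, SE 0.14) and 1893 ± 34.9 and 1948 ± 96.7 in GWAT (0.04, SE 0.07). The groups overlapped in each of these 6 comparisons, and the limma adjusted p lay between 0.619 and 0.982. In liver Rpl32 read 7875, 7785 and 7541 against 7857, 7361 and 7080 (-0.06, SE 0.09, adjusted p = 0.877), and its difference between tissues did not pass (0.25, SE 0.10, adjusted p = 0.162).

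None of the kept probes of paralogs of core ribosomal proteins was called in either tissue. Rpl3l, the muscle paralog of Rpl3, read 541, 55.9 and 65.1 on the GWAT arrays labelled wild type and 67.3, 86.4 and 95.3 on those labelled knockout. A single array thus held nearly all of its signal, it was above background on 1 of 3 wild-type and 2 of 3 knockout arrays, and the fitted difference was -0.71 (SE 0.92, adjusted p = 0.624). Skeletal muscle markers did not share this pattern: 4 of their 8 kept probes were higher in the arrays labelled knockout, and their summed intensity was 3205 to 3575 in wild type and 4604 to 6737 in knockout. The markers Ckm, Myh4, Tnnt3 and Pvalb had no kept probe. Rpl3 itself was 10463 ± 732 (SD, n = 3) and 11277 ± 631 in GWAT (0.11, SE 0.07, adjusted p = 0.307), and 9515 ± 394 and 8726 ± 495 in liver (-0.13, SE 0.10, adjusted p = 0.696).

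Rpl22l1, the paralog of Rpl22, was kept in liver alone, where it read 137, 130 and 153 in wild type and 133, 129 and 123 in the knockout, with overlap (-0.37, SE 0.24, adjusted p = 0.646). In GWAT it was below background on all 6 arrays. Rpl22 was 1085 ± 40.6 (SD, n = 3) and 1117 ± 159 in liver and 1507 ± 111 and 1669 ± 64.8 in GWAT (0.15, SE 0.08, adjusted p = 0.183). Rps27l lay at the 99.6th percentile of probes in liver and the 98.8th in GWAT, where it read 5885, 5113 and 4917 against 4950, 4970 and 4778 (-0.11, SE 0.08, adjusted p = 0.327). Rps4l, a paralog of Rps4x, was 163 ± 20.4 and 165 ± 8.11 in liver and 392 ± 31.5 and 389 ± 31.1 in GWAT (-0.01, SE 0.10, adjusted p = 0.954). Rps4x was 13866 ± 277 and 15266 ± 1220 in GWAT (0.14, SE 0.07, adjusted p = 0.186). Rpl7l1, a paralog of Rpl7, differed by 0.13 (adjusted p = 0.272) and -0.09 (adjusted p = 0.798) on its 2 probes in GWAT, and by 0.08 and -0.08 in liver.

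The genotype difference itself was compared between tissues with an interaction term, as labelled knockout minus wild type in GWAT less the same in liver. It passed for 3 of 72 members, 4.17%, where the background was 6.12% of 14365 probes. One of the members was higher in GWAT than in liver (1.39%, background 3.15%) and 2 were lower (2.78%, background 2.97%). Rpl21 on the probe ILMN_1225201 differed by -0.35 in liver and 0.69 in GWAT (1.05, SE 0.24, adjusted p = 0.0164). Its other kept probes, at 0.48 and 0.23 in liver and 0.40 and 0.35 in GWAT, differed between tissues by -0.08 (adjusted p = 0.892) and 0.13 (adjusted p = 0.799), so the result rests on 1 of 3 probes. Rps13 on ILMN_2482591 differed by 0.21 and -0.78 (-0.99, SE 0.25, adjusted p = 0.0247). Rpl7a differed by 0.33 and -0.23 (-0.56, SE 0.16, adjusted p = 0.0470), and its GWAT values were 1693, 1461 and 1337 against 1361, 1235 and 1234. With 1 of the 12 arrays left out, Rpl7a lost its call in 9 fits (adjusted p up to 0.126) and Rps13 in 5 (up to 0.0682). Rpl21 lost it without GWAT wild-type replicate 1 (adjusted p = 0.0516) and without GWAT knockout replicate 2 (adjusted p = 0.0586). Rps13 lost it without liver wild-type replicate 1 and without any GWAT array other than wild-type replicate 3 or knockout replicate 2. Rpl7a kept it without liver knockout replicates 1 and 3 and without GWAT wild-type replicate 3. Neither tissue alone called Rpl7a, and neither liver difference of the other probes was called.

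Since Cav1 ran against the GWAT labels, the interaction was also computed with the sign of GWAT turned. Then 5 of 72 members passed, 6.94%, where the background was 7.62% of all probes, and none of them was among the 3 above. They were Rps6 (-0.55, SE 0.11, adjusted p = 0.00746), Rps3 on ILMN_2637639 (-0.84, SE 0.21, adjusted p = 0.0195), Rps19 on ILMN_2754355 (-0.90, SE 0.25, adjusted p = 0.0322), Rpl26 (-0.51, SE 0.15, adjusted p = 0.0486) and Rpl23 on ILMN_2946482 (0.44, SE 0.10, adjusted p = 0.0160). In each of these 5 the difference had the same sign in both tissues as labelled, as in Rps6 with 0.38 in liver and 0.18 in GWAT. The turned term adds the labelled differences of both tissues, so it favours probes with a shared sign. The term above favours opposite signs. The shared sign and the lack of overlap with the 3 above are therefore no separate results. Which members differed between tissues thus depended on how the GWAT labels are read.

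Factors that build the ribosome or work with it were described for comparison. In liver none of their probes was called in any of the lists, with list medians of -0.11 to 0.20. All counts below are for GWAT, where 11.2% of all probes were higher and 11.4% lower, with a median of 0.01. Of 44 kept probes of translation initiation factors 13 (29.5%) were higher and 1 (2.27%) was lower in the arrays labelled knockout (median 0.20). Eif4a2, an RNA helicase of initiation, read 1779, 1923 and 2140 in wild type and 3098, 2890 and 2915 in knockout on 1 probe (0.62, SE 0.08, adjusted p = 0.000377), while a brighter probe overlapped (0.05). Eif3c, a subunit of the eIF3 complex, was higher by 0.67 on a dim probe (SE 0.19, adjusted p = 0.0266) and by 0.19 on the other (adjusted p = 0.193). The lower probe was that of Eif2b2 (-0.41), a subunit of the guanine nucleotide exchange factor eIF2B.

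Of 60 kept probes of ribosome biogenesis factors 8 (13.3%) were higher, near the 11.2% of all probes, and 1 (1.67%) was lower, against 11.4% (median 0.13). Ncl, the nucleolar protein nucleolin, was higher on both its called probes, by 0.53 (SE 0.16, adjusted p = 0.0363) and 0.48 (SE 0.11, adjusted p = 0.00961). The brighter of them read 291, 301 and 348 in wild type and 428, 386 and 443 in knockout, without overlap. Polr1a, the largest subunit of RNA polymerase I, had 1 dim probe that was lower (-0.90, SE 0.14, adjusted p = 0.00147) and 1 higher (0.39, SE 0.09, adjusted p = 0.0110), and its other 2 kept probes, at 0.10 and 0.06, did not pass.

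For elongation and release factors 2 of 22 probes (9.09%) were higher and 1 (4.55%) lower, both below the shares of all probes (median 0.07). Eef1e1, a component of the aminoacyl-tRNA synthetase complex, rose by 0.75 (SE 0.13, adjusted p = 0.00234), and a dim probe of the release factor gene Gspt1 differed by -0.54 (adjusted p = 0.0233) against -0.02 on its brighter probe. Nascent chain and targeting factors had 1 of 19 probes (5.26%) higher, Srp72 of the signal recognition particle (0.59, adjusted p = 0.0102), and 1 lower, Sec61a1 of the translocation channel (-0.43, adjusted p = 0.0215). Among regulators of ribosomal protein synthesis 3 of 30 probes (10%) were higher and 3 (10%) lower, near the shares of all probes (median -0.05). The higher ones were 2 probes of Tsc2 (0.36 and 0.40, with -0.34 and an adjusted p of 0.121 on the other), which restrains mTOR complex 1, and Maf1 (0.30), a repressor of RNA polymerase III. The kinase gene Mtor itself was lower (-0.32), and these 3 genes are named after their values were seen. Eif4ebp2, a repressor of cap-dependent initiation, read 1194, 1061 and 803 in wild type and 757, 633 and 595 in knockout (-0.65, SE 0.14, adjusted p = 0.00904). Larp4b, an RNA-binding protein of translation, was lower on 1 probe (-0.51, SE 0.08, adjusted p = 0.00179) and not on the other (0.20, adjusted p = 0.282). Of ribosome components outside the symbol rule, 1 probe was measured, that of Rpl36al, which differed by 0.11 in GWAT (adjusted p = 0.234) and by 0.06 in liver.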

How the data were processed

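Per the labels' protocols, total RNA was labelled as biotinylated cRNA for Illumina arrays. The authors deposited linear probe intensities, which the values show to be quantile-normalized within each tissue, since arrays ranked by intensity deviated by no more than 0.46% (liver) or 1.22% (GWAT). Software and versions were not given in the sources used here. Another 48 columns, of non-normalized values, named no sample and were left out.

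Probes were named through the platform annotation (34885 with 1 symbol, 18 with several and 10378 with none). Of these, 34807 matched the RefSeq gene table of GRCm38.p6, and current symbols gave the same 92 members. Start-site sequences came from RefSeq (GRCm38.p6).

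As a stand-in for negative controls, 1528 probes of chemosensory receptor genes (olfactory, vomeronasal or trace amine) served. Intensities were background-corrected with normexp on these probes (offset 16) and taken to log2 with limma 3.58.1 in R 4.3.3. A probe was above background on an array when over the 95th percentile of the receptor probes there, and was kept when so on at least 3 of 6 arrays. Fits were per probe, over all kept probes of a tissue, by lmFit and by eBayes with its trend option. Tests were two-sided, with Benjamini-Hochberg adjustment and a threshold of 0.05. The difference between tissues was an interaction over all 12 arrays. The fits were tested on simulated data. Precision is limited by having 3 arrays a group.

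The naming rule took, per tissue, the 8 largest rises and 8 largest falls among called members whose groups did not overlap and of which 1 genotype had all its arrays above background, 5 of each for the interaction, the paralogs, the stalk proteins, Rpsa, Rps6 and reference genes, and up to 2 called genes per list. The members and lists were chosen with earlier results of these data known. Alternatives were other background corrections, filters, units of test and variance models, array weights, the replicate block, joint normalization, leaving out the brightest 1% of probes or each array, and turning the GWAT sign. Same-numbered arrays did not deviate together, so replicate numbers were not taken as pairs.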

Additional observations from a re-analysis of the deposited data

Results flagged for a closer look

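For 3 member probes the labelled genotype difference differed between tissues by the interaction test. These are the Rpl21 probe ILMN_1225201, at 1.05 (log2, GWAT less liver), the Rps13 probe ILMN_2482591, at -0.99, and the single Rpl7a probe, at -0.56. The Rpl21 and Rps13 probes were dim in both tissues (means of 148 and 170 for Rpl21 and of 153 and 135 for Rps13), and the brighter Rps13 probe differed by 0.01 in liver and 0.04 in GWAT. The other Rpl21 probes differed between tissues by -0.08 and 0.13. With single arrays left out, the Rpl7a call was lost in 9 of 12 fits, that of Rps13 in 5 and that of Rpl21 in 2. With the sign of GWAT turned, the values were -0.34, 0.58 and -0.10 and none passed.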

How the results depend on the processing

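Over the named members and all settings, 652 values kept their direction and side of the threshold, 82 lost and 3 gained a call, and 41 changed sign; why was not tested.

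Higher calls in GWAT numbered 8, and 5 with 1 probe per gene, 5 without a filter, 5 without an intensity trend, 15 with array weights and 4 without the top 1% of probes. Lower calls numbered 5, and 3 with 1 probe per gene or the mean of a gene's probes and 2 without a filter, a trend or the top 1% of probes. Over both directions, 14.5% of 55 members were called with 1 probe per gene, against 24.9% of all genes tested. These 2 shares were 18.2% and 23.4% with the mean of probes, and 7.61% (of 92 members) and 8.01% without a filter. They were 9.21% and 18.1% without a trend, and 26.3% and 29% with array weights. Without the top 1% they were 15.8% (of 38 members) and 22.1%. Liver calls numbered 0, and 3 higher and 1 lower with array weights (5.48% of members, 4.59% of all probes). Between tissues, higher calls numbered 1, and 4 with array weights, 0 with the mean of probes, 3 without background correction and 2 with an offset of 50. Lower calls there numbered 2, and 4 with array weights or the GWAT sign turned, and 1 with 1 probe per gene, the mean of probes, no filter, no trend or no top 1%. The shares of members and of all probes called between tissues were 11.1% and 19.1% with array weights. They were 8.33% and 10.6% without background correction and 5.56% and 7.96% with an offset of 50. They were 3.77% and 7.64% with 1 probe per gene and 1.89% and 6.25% with the mean of probes. Without a filter they were 2.17% and 1.65%, without a trend 2.78% and 3.94%, and without the top 1% 6.06% and 5.24%. With each array left out, GWAT calls ran from 4 to 10 higher and from 1 to 4 lower. Between tissues they ran from 0 to 2 higher and from 0 to 3 lower, and in liver they stayed at 0. In these fits 2.72% to 10.6% of all probes were called between tissues. With the replicate block, GWAT calls were 6 higher and 5 lower (14.5% of members, 21.5% of all probes). Those of Rps6, Rpl32 and Rpl21 ILMN_1222250 were lost and that of Rpl4 gained (0.33). Deviations of same-numbered arrays correlated by -0.03 to 0.11.

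With 1 probe per gene, the brightest kept probe stood for each gene. Its sign was opposite to that of the named probe for Rps19 (-0.03), Rps13 (0.04) and Rps24 (0.13) in GWAT. The same held for Rps13 between tissues (0.03) and for the dimmer probe of Rpl7l1 (0.08 in liver, 0.13 in GWAT, and 0 and 0.02 with the mean of probes). With array weights the sign changed for Rpl7l1 (-0.17 and 0.03 in liver, 0.10 in GWAT), Rpl3l (0), Rps29 (0), Rpl13a (-0.04) and Rplp1 (0.01). With the GWAT sign turned, which is another comparison, it changed for Rpl21 (-0.34) and Rps13 (0.58) between tissues. With single arrays left out, uncalled GWAT values crossed 0 for Rplp1 (-0.04 to 0.03), Rplp2 (-0.09 to 0.03), Rps29 (-0.05 to 0.04), Rps4l (-0.08 to 0.06), Rpl13a (-0.05 to 0.09) and Rpl7l1 (-0.31 to 0.10), and liver values for Rplp1 (-0.02 to 0.13), Rps4l (-0.18 to 0.27), Rpl13a (-0.12 to 0.05) and Rpl7l1 (-0.02 to 0.27 and -0.15 to 0.07).

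Members near background have the least certain differences, and 3 arrays per group limit all of them.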
